A study of Mus musculus with 6 samples.

Results

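The guanylate-binding proteins are a family of large GTPases that cells make in response to interferon. The members described here are the rows of the deposited expression table whose gene symbol is Gbp2, Gbp3, Gbp4, Gbp5, Gbp6, Gbp7, Gbp8 or Gbp9, which gave 8 of 22475 genes. They were followed in Lin- cKit+ Sca1+ cells sorted from mouse bone marrow, a gate in which haematopoietic stem cells and early progenitors are enriched. All of the mice carried FLT3-ITD on both alleles. This internal tandem duplication makes the receptor tyrosine kinase FLT3 signal without its ligand. The groups differed in miR-155, which was wild type in the control (FLT3-ITD) and deleted on both alleles in the FLT3-ITD miR-155 KO, called KO below. Total RNA of 3 mice was combined in each library and each group had 3 RNA-seq libraries, so that the error of every test is a spread between pools of mice. The age and strain of the mice and the way the miR-155 allele was made are not given in the sources used here.

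Guanylate-binding proteins act inside the cell that makes them. After interferon binds its receptor, transcription factors such as IRF1 switch on Gbp genes through short DNA elements near their start sites. The proteins then bind one another and gather on vacuoles that hold bacteria or parasites, or on the bacteria themselves, help to break these open, and thereby expose microbial products to inflammasomes. In blood-forming tissue, interferon is a signal that draws stem cells out of rest, and Gbp genes are widely used as a readout of that signal.

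The elements through which interferon acts can be read in the promoters of the family, which is why these are shown. The 170 bases before the RefSeq start site (GRCm38.p6, + strand) are printed for the chromosome 3 genes, with motif matches in capitals. The interferon-stimulated response element was searched on both strands as GAAA, any 2 bases and GAAA, and it appears here as TTTC, 2 bases and TTTC because every match is on the other strand. The gamma-activated sequence was searched as TTC, any 3 bases and GAA, which reads the same on both strands.
Gbp2, chr3:142620493-142620662: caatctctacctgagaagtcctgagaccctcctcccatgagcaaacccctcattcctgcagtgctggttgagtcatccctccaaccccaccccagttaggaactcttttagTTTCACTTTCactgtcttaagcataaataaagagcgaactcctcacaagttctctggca
Gbp2b, chr3:142594677-142594846: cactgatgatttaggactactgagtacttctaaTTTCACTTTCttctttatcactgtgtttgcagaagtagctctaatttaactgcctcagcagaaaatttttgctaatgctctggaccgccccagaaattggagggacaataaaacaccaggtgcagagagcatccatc
Gbp3, chr3:142559874-142560043: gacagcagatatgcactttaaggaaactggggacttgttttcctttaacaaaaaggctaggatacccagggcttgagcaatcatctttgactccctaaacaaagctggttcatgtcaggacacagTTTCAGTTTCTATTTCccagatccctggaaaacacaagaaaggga
Gbp5, chr3:142496764-142496933: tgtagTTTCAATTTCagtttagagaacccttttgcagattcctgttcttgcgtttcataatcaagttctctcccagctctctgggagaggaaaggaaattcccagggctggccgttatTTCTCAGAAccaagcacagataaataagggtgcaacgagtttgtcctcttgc
Gbp7, chr3:142530166-142530335: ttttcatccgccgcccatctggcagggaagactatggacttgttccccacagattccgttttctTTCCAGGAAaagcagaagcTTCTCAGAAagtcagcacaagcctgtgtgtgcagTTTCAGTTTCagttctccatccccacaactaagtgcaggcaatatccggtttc
RefSeq lists 6 promoters of 300 bases for these 5 genes. The response element was present in 5 of the 6, against 3.44% of 32851 mouse promoters of the same length, and the exception was the downstream start site of Gbp3. Both matches of Gbp3 overlap each other. The gamma-activated sequence was found in the promoters of Gbp5 and Gbp7, 2 matches in each, against 8.30% of all promoters, and 1 of the matches of Gbp5 lies further upstream than the bases printed. A match describes letters and not a bound site. The chromosome 5 members Gbp4, Gbp6, Gbp8 and Gbp9 are named only.

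The deleted microRNA recognises its targets through bases 2 to 8 of its mature strand, printed in capitals, and a direct target would carry the complement of this seed in its 3' UTR.
miR-155-5p, chr16:84714143-84714165: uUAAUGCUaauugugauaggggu
Gbp7, chr3:142548161-142548167 (capitals, + strand): tcgcttctaacAGCATTAtttgg
In GENCODE M21, 11 Gbp genes have an annotated 3' UTR, counting the genes whose names differ from the table. None of them held the full 8-base match AGCATTAA. Gbp7 was the only gene with the 7-base match to the whole seed, and only in the longer of its 2 annotated transcripts. Of 1278 mouse 3' UTRs within 10% of that length, 22.4% held the same match. The weaker match GCATTAA occurred in Gbp9 and in a stretch that Gm43302 and Gbp10 share, and 12.6% of 3' UTRs as long as that of Gbp9 held it. For the lengths of Gm43302 and Gbp10 the shares were 12.2% and 9.18%. Gm43302 has the identifier of the row that the deposited table names Gbp6, so by identifier that row does hold the weaker match. The genes that GENCODE M21 names Gbp2, Gbp2b, Gbp3, Gbp4, Gbp5, Gbp6 and Gbp8 had neither.

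The family lies in 2 clusters, and the names in the table do not all match the current annotation. On chromosome 3, Gbp7 (142530342 to 142550149), Gbp3 (142560026 to 142573209), the row named Gbp5 (142594847 to 142619179) and Gbp2 (142620602 to 142638008) lie on the + strand of GRCm38. On chromosome 5, Gbp8 (105014150 to 105139540), Gbp9 (105077630 to 105139539), Gbp4 (105115767 to 105139586) and the row named Gbp6 (105214907 to 105293695) lie on the - strand. All 8 are annotated as protein-coding. The identifier of the row named Gbp5 (ENSMUSG00000040264) belongs to Gbp2b in GENCODE M21, and that of the row named Gbp6 (ENSMUSG00000079362) belongs to Gm43302. The coordinates given for these rows are those of the identifiers, and they are called the Gbp5 row and the Gbp6 row below. The genes that GENCODE M21 calls Gbp5, Gbp6 and Gbp10 have no row under their own identifiers.

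How far each row can be told from its relatives differs between the clusters. Every one of the 50-base words of the Gm43302 transcript occurs in the transcript of another Gbp gene, 93.0% of them in Gbp6. Its exons share 1726 bases with Gbp6 and 1792 with Gbp10. The Gbp6 row can therefore hold reads of any of these 3 genes, which cannot be told apart. The shared part was 21.2% for Gbp8, 12.8% for Gbp4 and 9.56% for Gbp9, and these 3 genes share a first exon of about 60 bases. On chromosome 3 it was at most 5.19%, in Gbp7, and 2.07% in Gbp2.

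**Figure D1:**
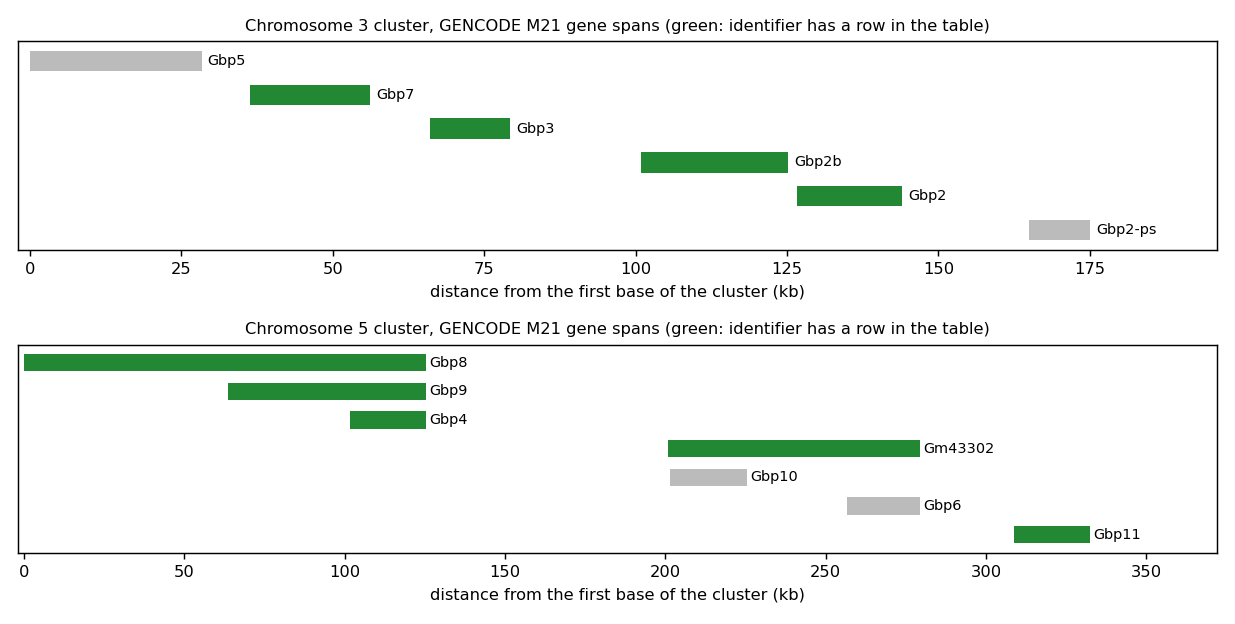
Spans of the Gbp genes in GENCODE M21, as distance in kb from the first base of each cluster. Green spans have a row in the deposited table and grey spans have none; Gbp8, Gbp9 and Gbp4 end together near 125 kb, where their shared first exon lies, and the span of Gm43302 (the Gbp6 row) covers Gbp10 and Gbp6.

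Totals lay between 6843129 and 9443615 counts per library, so 3 counts, the most that a count of 0 leaves possible, stood for 0.326 to 0.460 CPM, a count divided by the TMM-scaled library size and scaled up. The transcript at the miR-155 host locus, Gm26667, had 33, 48 and 36 counts in the control and 4, 14 and 4 in the KO libraries, and the Mir155 row had 2, 1 and 0 against 0, 0 and 0. Markers of stem and progenitor cells were present in every library, with 1557, 2292 and 2148 CPM in the control and 1468, 2115 and 2074 CPM in the KO, summed over 10 genes. The libraries numbered 1 were lowest here in both groups and stood apart in macrophage markers too, as given beside the members below. Plasma cell markers were lower in the KO, 1157, 694 and 1782 CPM against 4502, 3107 and 4484 over 8 genes, and so were neutrophil markers, 355, 505 and 329.7 CPM against 736, 589 and 623 over 9 genes. In bulk RNA, fewer cells of a type and less RNA per cell cannot be told apart.

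Per length of transcript, Gbp7, Gbp3 and Gbp2 were the most abundant members in these cells. In the authors' FPKM, which divides counts by transcript length and library size, the control libraries held 37.9 ± 1.40 of Gbp7, 29.5 ± 4.97 of Gbp3 and 25.0 ± 9.22 of Gbp2 (mean ± SD, n = 3 here and below). The Gbp5 row followed with 11.0 ± 2.49 FPKM. The chromosome 5 members were lower, at 5.56 ± 1.60 FPKM for Gbp9, 3.54 ± 0.378 for Gbp4, 3.34 ± 1.70 for Gbp8 and 1.52 ± 0.471 for the Gbp6 row. Of neighbours in this order, the libraries of Gbp3 and Gbp2 overlapped, as did those of Gbp4 and Gbp8, and the others did not. In the KO libraries Gbp2 came first, at 43.5 ± 26.7 FPKM, but its libraries overlapped those of Gbp7 (40.8 ± 3.66). Gbp3 followed at 33.9 ± 1.57, the Gbp5 row at 15.2 ± 4.42, Gbp9 at 7.55 ± 1.85, Gbp4 at 5.41 ± 0.779, Gbp8 at 4.30 ± 2.01 and the Gbp6 row at 3.35 ± 0.468 FPKM. Among the last 4, each overlapped its neighbours in the order. The genes of chromosome 3 made up 88.1% of the family's mean FPKM in the control and 86.6% in the KO.

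The comparison of KO with control asks whether these genes differ when miR-155 is missing from FLT3-ITD cells. All 8 members had a higher mean in the KO, with log2 fold changes from 0.10 (Gbp7) to 1.13 (the Gbp6 row) and a median of 0.45, against a median of 0.00 over the 13217 genes tested, of which 50.2% had a positive value. None of the 8 passed an adjusted p of 0.05 in edgeR's quasi-likelihood test, where 0.0151% of all genes were called higher and 0.159% were called in either direction. None passed in limma-voom, or with the replicate number as a block, a fit that called 0.318% of all genes higher. All 8 members passed the filter on low counts, with 40 to 2013 counts per library.

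Counts of members past weaker criteria were as follows. At an unadjusted p under 0.05, edgeR found 2 members, the Gbp6 row and Gbp4, against 1.41% of all genes higher in the KO. With the block it was 5, with Gbp2, the Gbp5 row and Gbp9 added, against 4.43% of genes. In the same 2, all 3 KO libraries lay above all 3 controls in CPM, as they did for 3.43% of genes. In 5 members the KO library exceeded the control library of the same number in all 3 pairs, against 15.1% of genes. DESeq2 called 1 member, the Gbp6 row, against 0.0516% of all genes called higher.

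**Figure D2:**
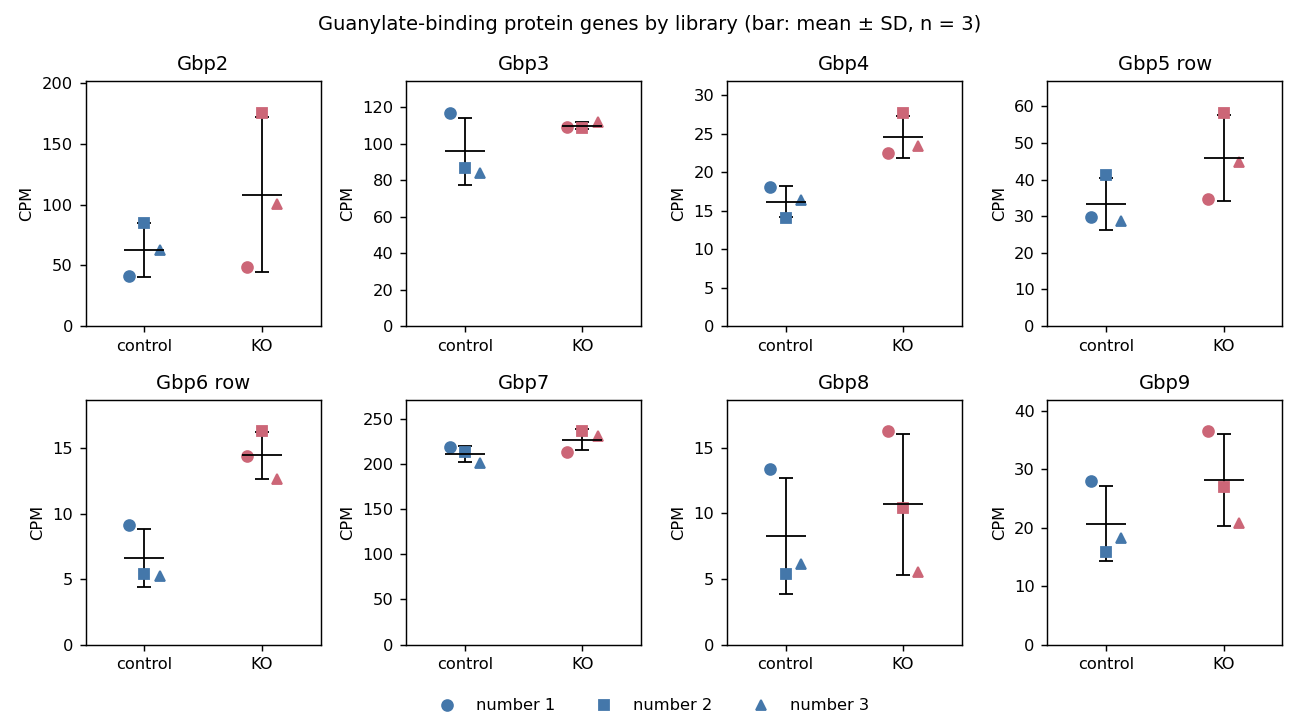
CPM of each member in every library, with the mean and SD (n = 3) as black bars, control in blue and KO in red, and the number of the library given by the symbol. For Gbp4 and the Gbp6 row the KO libraries all sit above the controls; for Gbp2 they spread from 48.9 to 175 CPM.

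Among the chromosome 5 genes, the Gbp6 row had the highest fold change of the family. It stood at 9.13, 5.40 and 5.25 CPM in control libraries 1 to 3 and at 14.4, 16.3 and 12.7 CPM in the KO libraries. The lowest KO library lay above the highest control, which was control 1. The log2 fold change was 1.13 ± 0.25 (SE; 95% interval 0.53 to 1.72), with an adjusted p of 0.338 in edgeR. In DESeq2 the adjusted p was 0.0222, and in the authors' deposited table it was 0.0280 at a log2 fold change of 1.13. These values rest on 43 to 127 counts per library and on a transcript model whose words all recur in other Gbp genes. Ranked from the highest log2 fold change downwards, the row was number 20 of the 13217 genes.

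Gbp4 also had groups that did not overlap. Its coding sequence is 90.7% identical to that of Gm43302, and those of Gbp8 (91.4%) and Gbp9 (90.8%) are as close. Its control libraries held 18.0, 14.0 and 16.4 CPM and its KO libraries 22.5, 27.7 and 23.4 CPM. Again no KO library reached down to a control. The log2 fold change was 0.60 ± 0.15 (SE; 95% interval 0.26 to 0.95), with an adjusted p of 0.429 in edgeR. With the counts of Gbp4 and the Gbp6 row added before the fit, since reads could have been shared between them, the value was 0.78 ± 0.15, with an adjusted p of 0.209.

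Gbp8 and Gbp9 start at the exon they share with Gbp4 but were ordered differently across libraries. Gbp8 had 13.4, 5.40 and 6.11 CPM in the control and 16.2, 10.4 and 5.51 CPM in the KO. Library 1 was highest in each group, and KO 3 lay at the level of control 2, so the groups overlapped over nearly their whole range. Its log2 fold change was 0.36 ± 0.47 (SE; 95% interval -0.75 to 1.47; adjusted p 0.9995 in edgeR), and without KO library 1 it was -0.06. Gbp9 had 27.9, 15.8 and 18.2 CPM in the control and 36.5, 27.0 and 20.8 CPM in the KO. Library 1 was again the highest of its group, and 2 of the 3 KO libraries lay below control 1. Its log2 fold change was 0.44 ± 0.27 (SE; 95% interval -0.20 to 1.08; adjusted p 0.9995), and each KO library exceeded the control of its own number. It was 0.22 without KO library 1 and 0.72 without control library 1.

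On chromosome 3, Gbp2 varied most. Gbp2 is the member best known for coating the vacuoles of Toxoplasma and bacteria such as Salmonella. It had 40.9, 85.0 and 62.6 CPM in control libraries 1 to 3 and 48.9, 175 and 100.2 CPM in the KO libraries. Library 2 was highest, library 3 came next and library 1 was lowest in both groups, and KO 1 lay below 2 of the 3 controls. The log2 fold change was 0.79 ± 0.45 (SE; 95% interval -0.27 to 1.84), with an adjusted p of 0.9995 in edgeR. It was 0.24 without KO library 2 and 1.14 without KO library 1. Within pairs of equal number the log2 ratios were 0.26, 1.05 and 0.68, and the fit with the number as a block gave 0.69 ± 0.14 with an adjusted p of 0.0904. As a share of the family's FPKM, Gbp2 ranged from 13.5% in control 1 to 37.4% in KO 2.

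The Gbp5 row, whose identifier is that of Gbp2b, shared this order in part. Under the name Gbp5 the textbook role is to promote assembly of the NLRP3 inflammasome, and Gbp2b, formerly Gbp1, is the closest relative of Gbp2, with 82.5% identical coding bases. The row had 29.8, 41.3 and 28.6 CPM in the control and 34.6, 58.2 and 44.8 CPM in the KO. Library 2 was highest in both groups, and KO 1 lay below control 2. The log2 fold change was 0.47 ± 0.22 (SE; 95% interval -0.05 to 0.98), with an adjusted p of 0.9995 in edgeR. Without KO library 2 it was 0.25.

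Gbp3 and Gbp7, which have the highest levels per length in the control, differed least between the groups. Over all 6 libraries they also spread least, with a highest CPM of 1.39 and 1.18 times the lowest. Within the control alone, Gbp4 (1.29 times) spread less than Gbp3 (1.39 times). Gbp3 had 116.9, 86.9 and 83.8 CPM in the control and 109.1, 108.6 and 112.2 CPM in the KO. Control 1 was the highest of all 6 libraries and the other controls were the lowest. Gbp7, which takes part in oxidative killing by phagocytes, had 219, 214 and 201 CPM in the control and 214, 236 and 231 CPM in the KO, so that KO 1 lay inside the control range. Log2 fold changes were 0.20 ± 0.13 (SE; 95% interval -0.11 to 0.51) for Gbp3 and 0.10 ± 0.08 (SE; 95% interval -0.07 to 0.28) for Gbp7, both with an adjusted p of 0.9995 in edgeR. The value of Gbp3 was 0.37 without control library 1 and 0.12 without control library 3.

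**Figure D3:**
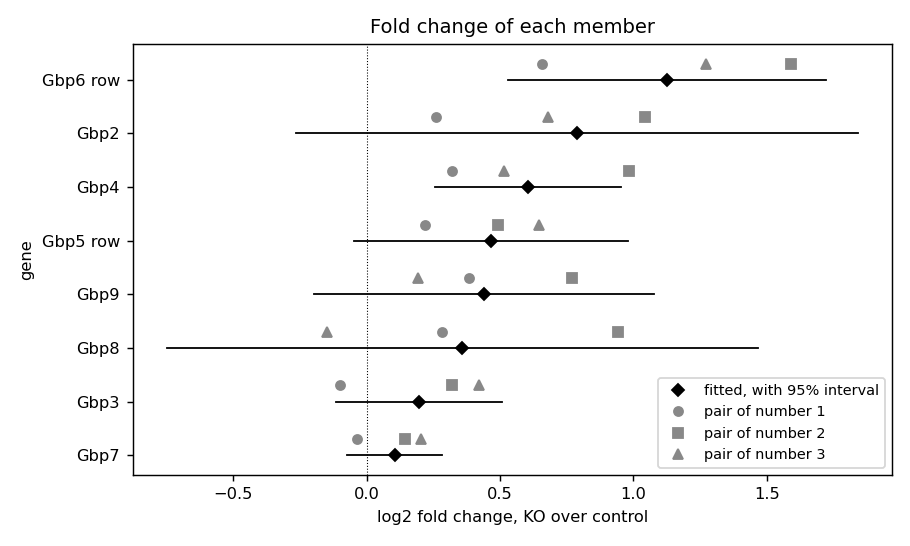
Log2 fold change of each member, KO over control, as fitted by edgeR (black, with its 95% interval) and in each pair of libraries with equal numbers (grey). The intervals of the Gbp6 row and Gbp4 lie above 0 and those of the other 6 members include 0. In 5 members all 3 pair ratios are positive, as in 15.1% of all genes. The members share libraries and, on chromosome 5, sequence, so their ratios are not separate observations.

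The sum over the family was taken next. The 8 rows together gave 475, 468 and 422 CPM in the control and 496, 659 and 551 CPM in the KO, so the lowest KO library lay just above the highest control. The log2 ratio of the means was 0.32, from 455 ± 28.8 to 569 ± 83.2 CPM. It was 0.28 for the chromosome 3 genes and 0.59 for those of chromosome 5. The pairs numbered 1, 2 and 3 had median log2 ratios of 0.27, 0.86 and 0.47 over the members.

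Across the 6 libraries the members fell into different orders. Over log2 CPM, Gbp2 and the Gbp5 row had a Pearson correlation of 0.92, Gbp4 and the Gbp6 row 0.95, and Gbp8 and Gbp9 0.95. Gbp2 against Gbp8 gave -0.40 and Gbp2 against Gbp9 gave -0.26. These are descriptions over 6 points that share libraries and, on chromosome 5, sequence. The highest library was KO 2 for 5 members, KO 1 for Gbp8 and Gbp9, and control 1 for Gbp3.

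**Figure D4:**
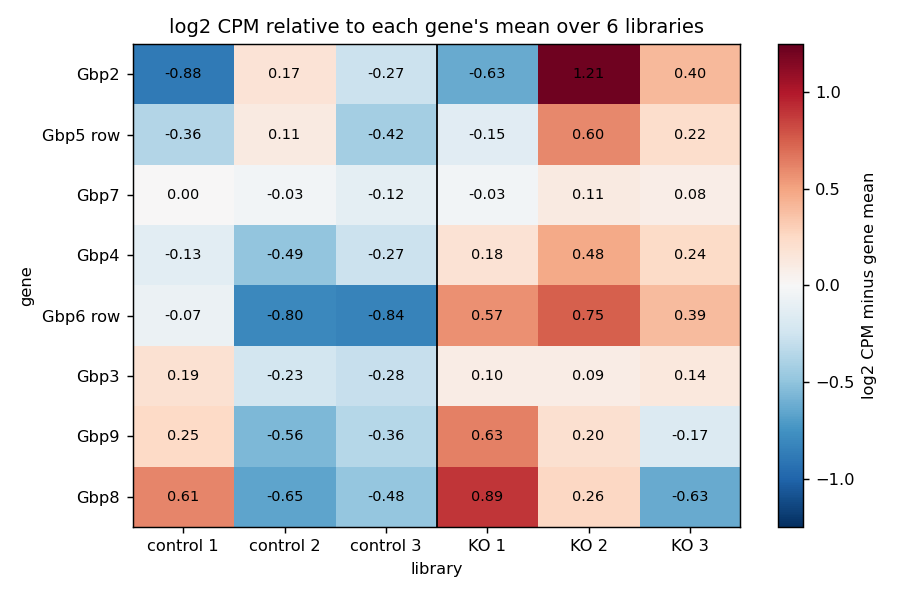
Log2 CPM of each member minus its mean over the 6 libraries, as a colour and a number, with a line between control and KO. Gbp2 is lowest in both libraries numbered 1 (-0.88 and -0.63) and highest in KO 2 (1.21), while Gbp8 is highest in both libraries numbered 1 (0.61 and 0.89).

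Markers of other cells differed between libraries along with some of these values. The 13 macrophage markers, none of them at 0 in any library, summed to 1075, 204 and 235 CPM in the control and 825, 259 and 357 CPM in the KO. Library 1 was thus highest in each group, as it was for Gbp8 and Gbp9, while Gbp2 and the stem and progenitor markers were lowest there. The 7 monocyte markers, none at 0, summed to 3349, 2060 and 2273 CPM in the control and 3476, 2613 and 2952 CPM in the KO, higher in the KO library of every pair. All 7 had a positive fold change, with a median of 0.23, against 50.2% of all genes. With the block 1 was called (Ms4a6c), against 0.318% of all genes called higher, and 0 were called without it. The 9 dendritic cell markers, again none at 0, summed to 573, 439 and 494 CPM against 1012, 438 and 376. The 12 markers of T and NK cells, which make interferon-gamma, summed to 139, 146 and 139 CPM in the control and to 102, 129 and 122 CPM in the KO. Fold changes were positive for 2 of the 12 macrophage markers tested (median -0.29) and 1 of the 10 stem and progenitor markers (-0.17). They were positive for 1 of 11 T and NK markers (-0.34) and 6 of 8 dendritic cell markers (0.26). Of these lists, the block called 1 gene, Cd28, lower in the KO (adjusted p 0.0153), as it did 138 of 13217 genes. The part of these cells in the Gbp values was not tested. With both libraries numbered 1 left out, the log2 fold changes were 1.44 for the Gbp6 row and 0.90 for Gbp2. The smallest adjusted p of a member in edgeR was then 0.0840. Without both libraries numbered 2, the values were 0.90 and 0.52, with a smallest adjusted p of 0.9997. Without both numbered 3, they were 1.08 and 0.84, with a smallest adjusted p of 0.9996. All 8 remained positive in each of these fits.

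The messenger of interferon-gamma itself was barely detected. Ifng, chosen after its values were seen, had 6, 19 and 10 counts in the control and 6, 16 and 8 counts in the KO, too few to pass the filter.

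**Figure D5:**
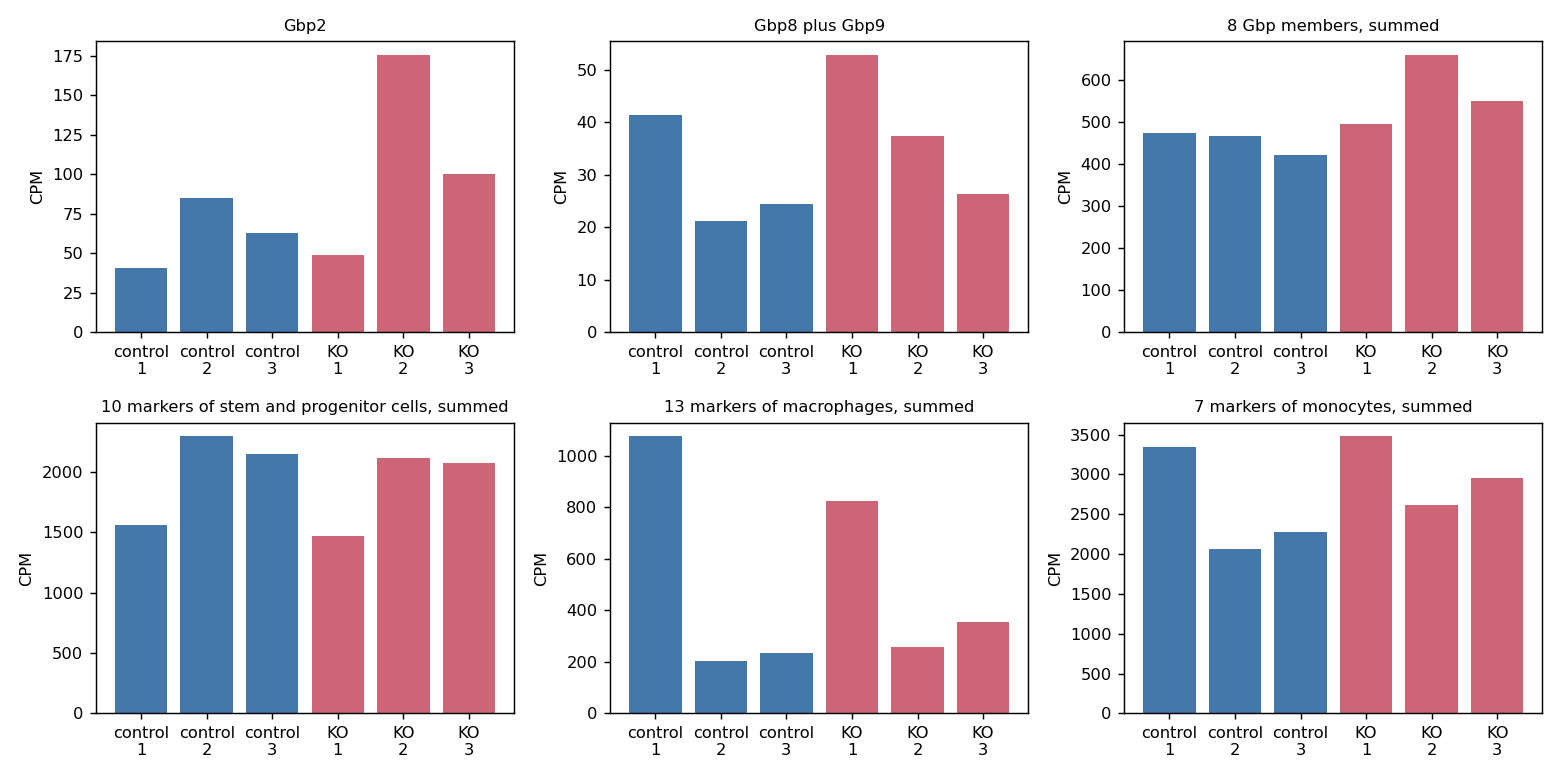
CPM per library of Gbp2, of Gbp8 and Gbp9 added together, of the 8 members added together, and of the summed markers of stem and progenitor cells, macrophages and monocytes, control in blue and KO in red. In the libraries numbered 1, Gbp2 and the stem and progenitor markers are lowest in each group, and Gbp8 with Gbp9 (41.3 and 52.7 CPM), the macrophage markers and the monocyte markers are highest.

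Upstream of the family, none of the tested inducers or genes of the receptor chain was called. No interferon gene could be tested. Ifnb1, Ifna2 and Ifna4 had 0 to 2 counts per library and, like Ifng, did not pass the filter. Of 12 ligands and inducers listed, 8 had a row and 4 were tested, Il12a, Il12b, Il18 and Tnf. Among these, 2 had a positive fold change. In edgeR, DESeq2 and limma-voom 0 were called, and 0 had an unadjusted p under 0.05 in edgeR. Il12b, a subunit of interleukin 12, stood at 0.63 ± 0.47 (log2, SE) and Tnf at 0.35 ± 0.23. Of 15 receptor, kinase and transcription factor genes, 14 were positive with a median of 0.26, against 50.2% of all genes. In edgeR 1 had an unadjusted p under 0.05 (Irf1), against 1.41% of all genes higher in the KO. There, in DESeq2 and in limma-voom 0 were called. Irf1, a factor that binds the response element shown above, had 124, 155 and 147 CPM in the control and 177, 214 and 169 CPM in the KO. No KO library lay below a control, and the log2 fold change was 0.39 ± 0.12, with an adjusted p of 0.800 in edgeR. Nlrc5, the activator of MHC class I genes, stood at 0.26 ± 0.12.

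Of 7 negative regulators, all had a positive fold change, with a median of 0.12, against 50.2% of all genes. In edgeR 0 were called and 1 had an unadjusted p under 0.05, against 1.41% of all genes higher in the KO. DESeq2 and limma-voom gave no call. With the block 1 was called, against 0.318% of all genes called higher. This was Usp18, the protease that removes ISG15 and restrains the type I interferon receptor. Usp18 had 50.3, 29.9 and 28.7 CPM in the control and 92.3, 53.4 and 54.9 CPM in the KO. Its log2 fold change was 0.88 ± 0.29, with an adjusted p of 0.883 in edgeR. The adjusted p with the block was 0.0031. Ptpn6, the phosphatase SHP-1, stood at 0.12 ± 0.12.

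The other interferon-inducible GTPases include the IRG proteins, which load onto the same vacuoles as the Gbp proteins. All 14 tested had a positive fold change with a median of 0.49, against 50.2% of all genes. In 9 of them all KO libraries lay above all controls, against 3.43% of all genes. In edgeR 10 had an unadjusted p under 0.05 and 1 was called, Iigp1, against 3 in DESeq2 and 5 with the block. The shares of all genes higher in the KO were 1.41% at the unadjusted p and 0.0151% called in edgeR. They were 0.0516% called in DESeq2 and 0.318% with the block. Iigp1, a vacuole-attacking GTPase, rose from 49.9, 54.9 and 45.2 CPM to 92.7, 102.4 and 89.9 CPM, a log2 fold change of 0.93 ± 0.10 with an adjusted p of 0.0339. Iigp1 was also called in limma-voom (adjusted p 0.0355), in DESeq2 (1.5e-08) and with the block (0.0019). Its edgeR call was lost in all 6 fits that left out 1 library, with adjusted p-values from 0.0567 to 0.165. Its log2 fold changes there were 0.86 to 1.00. Few genes of any kind were called higher in those fits: 3 without KO library 3, 1 without KO library 1 and 0 in each of the others. The other 4 called with the block were Ifi47 (0.42), Gm12185 (0.75), Gm12250 (0.50), also known as Irgb10, and the antiviral Mx1 (0.84), given as log2 fold changes of that fit. Their adjusted p-values lay between 0.0240 and 0.0463 with the block, and were at least 0.146 without it.

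Of 14 tested genes whose products work at vacuoles and inflammasomes, 12 had a positive fold change, with a median of 0.13, against 50.2% of all genes. In edgeR 0 were called and 0 had an unadjusted p under 0.05, with no call in DESeq2, limma-voom or the block; Casp1, the inflammasome protease, stood at 0.18 ± 0.10 and Gsdmd, the pore it cuts, at 0.21 ± 0.11. Of the chemokines that interferon-gamma induces, 2 were tested. Cxcl10 rose from 13.8, 14.0 and 13.3 CPM to 27.4, 34.0 and 32.9 CPM, a log2 fold change of 1.20 ± 0.13 with an adjusted p of 0.0339 in edgeR. That call was kept without KO library 1 (adjusted p 0.0292) and lost in the other 5 fits that left out 1 library (up to 0.165). Those 6 fits called few genes higher at all, and the log2 fold change of Cxcl10 stayed between 1.13 and 1.29. Cxcl10 was also called in limma-voom (adjusted p 0.0355), in DESeq2 (3.6e-08) and with the block (0.0048). Cxcl9 had 38.9, 37.4 and 13.4 CPM against 64.5, 52.4 and 36.2 CPM, and its value of 0.77 ± 0.39 did not pass (adjusted p 0.9995).

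The mean of the 8 members, each centred on its own mean log2 CPM, was -0.05, -0.31 and -0.38 in control libraries 1 to 3 and 0.20, 0.46 and 0.09 in the KO libraries. The 5 genes outside the family most like this profile, of 10298 with a mean log2 CPM of at least 3, were Amdhd2 and BC068281 (Pearson r = 0.98 over the 6 libraries), Sntb2 and Tmco3 (0.97) and Stam2 (0.96). None of the 5 was called, with log2 fold changes from 0.09 (Stam2) to 0.39 (BC068281). Gbp11, a further member annotated as a polymorphic pseudogene, had 5, 0 and 2 counts in the control and 8, 3 and 4 in the KO and was not tested.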

How the data were processed

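Total RNA of 6 libraries, 3 per group, was sequenced by the authors. They deposited 1 table of gene counts (whole numbers, not normalized), FPKM values, and their own comparison as a log2 fold change and an adjusted p-value per gene. The submitters' processing notes name mm10, Novoalign 2.08.01 and DESeq2 1.10.1. The read counter, strand setting and gene annotation are not given in the sources used here, so reads shared by near-identical or overlapping Gbp genes may have been split or dropped.

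Counts were fitted in R 4.3.3 with edgeR 4.0.16: TMM, filterByExpr (minimum count 10, minimum total 15), a quasi-likelihood F test (two-sided) with group as the only term, Benjamini-Hochberg adjustment over 13217 genes, threshold 0.05. CPM uses TMM-scaled library sizes, and SE was derived from the F statistic. FPKM served only to compare levels between genes. Totals were 6843129 to 9443615 counts per library. Intervals at 95% come from the fit, and the limit of 3 counts covers counting error only. Alternatives were DESeq2 1.42.0 and its size factors, limma-voom 3.58.1, other filters, library sizes without immunoglobulin genes, a replicate block and leaving out libraries. On simulated counts (KO against control, 13064 genes tested, 50 genes changed at each of 1.5-, 2-, 4- and 8-fold), the fit recovered 16% of 1.5-fold and 78% of 2-fold changes. It made 11 false calls. The simulated libraries shared nothing by number, and more genes were changed than the 21 called in the data, which loosens the adjustment. These shares can therefore be too high for a member.

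Replicate numbers in the titles recur in both groups, with no stated meaning. Deviations from group means correlated by 0.57, 0.53 and 0.22 between libraries numbered 1, 2 and 3, all above the limit of 0.1. The numbers were therefore used as pairs for the pair ratios and for the fit with the block. The main fit has the group as its only term, since no block is stated, and its adjusted p-values do not use the pairs. Control 3 and KO 2, which differ in number, also passed that limit at 0.13, so it does not single out the numbered pairs. The check used the same counts that the fit with the block tests.

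The members and lists were chosen with earlier results of these data known. Named from each list are genes called with or without the block and the 2 with the smallest unadjusted p. Gene models are from GENCODE M21 (GRCm38), promoters and miRNA from RefSeq (GRCm38.p6). Symbols of 2 of the 8 members differ from GENCODE M21. Lengths implied by FPKM and counts matched the model within 5% for 78.1% of 567 genes with 1 transcript. They were 3021 bases for the Gbp5 row and 4314 for the Gbp6 row (Gm43302: 4310). The length of the Gbp5 row was within 5% of 1 transcript of Gbp5 (3055, among transcripts of 1836 to 3756). It was not within 5% of Gbp2b (2823). Which gene's reads this row holds was not settled.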

Additional observations from a re-analysis of the deposited data

How the results depend on the processing

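Of 138 recomputed fold changes of members, 136 stayed on their side of the threshold with an unchanged sign. No member was called in the main fit, so staying on the same side means not being called again. Some settings left out libraries and called 0 genes, so this share says little about stability. The fit with Gbp4 and the Gbp6 row summed is counted under both names. The Gbp6 row passed in DESeq2 (adjusted p 0.0222), so that 1 member was called there and 0 in every other setting run, and Gbp8 turned to -0.0573 without KO library 1 (without FLT3-ITD library 1 it was 0.894). The replicate block called no member, and 5 members had an unadjusted p under 0.05 with it (4.43% of all genes higher), against 2 without it. In edgeR with the block, the adjusted p was 0.0627 for the Gbp6 row, 0.0904 for Gbp2, 0.147 for the Gbp5 row and 0.186 for Gbp4. It was 0.311 for Gbp9, 0.599 for Gbp3, 0.672 for Gbp8 and 0.729 for Gbp7. Over all genes, 21 were called (2 higher, 19 lower), 180 with the replicate block (42 higher, 138 lower), 131 in DESeq2 (8 and 123) and 97 with no low-count filter (4 and 93). Leaving out each library gave 0 to 27 calls, and leaving out both libraries of number 1, 2 or 3, an alternative chosen after seeing the data, gave 27, 10 and 6. With a bias-adjusted quasi-likelihood, also added later, it was 28. Causes of these differences were not tested. At this depth and n, a difference of 1.5-fold in a member would mostly not be called.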
